A study of Arabidopsis thaliana with 12 samples.

Results

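The best known light receptors of *Arabidopsis* are encoded by 10 genes, whose transcripts were followed in seedlings that had grown in darkness with or without the phytochrome-interacting factors (PIFs). The 10 loci were chosen by their identifiers and not by their values, although earlier results of these data were known. They are the phytochrome genes *PHYA* to *PHYE*, the cryptochrome genes *CRY1* and *CRY2*, the phototropin genes *PHOT1* and *PHOT2*, and the UV-B receptor gene *UVR8*. They are 10 of the 33602 loci in the count tables, and all 10 were among the 18356 genes with enough reads to be tested. The genotypes were *pifq* (mutated in *PIF1*, *PIF3*, *PIF4* and *PIF5*), *pif145* (mutated in *PIF1*, *PIF4* and *PIF5*), *pif3* (mutated in *PIF3*) and wild type (WT), all of the Col-0 ecotype, with 3 libraries of whole seedlings each. In all 4 genotypes, seeds were given 3 h of white light at 21 °C and a 15 min pulse of far-red light, and the seedlings were harvested after 2 days in darkness. The comparisons address how PIF3, by itself and beside the other PIFs, shapes transcript levels before seedlings emerge into light.

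Photoreceptors are proteins that carry a light-absorbing group or, in UVR8, a cluster of tryptophans, and that change activity when they absorb light. Phytochromes sense red and far-red light, cryptochromes and phototropins sense blue light, and UVR8 senses UV-B. Phytochrome A is the phytochrome that builds up in darkness and is lost in the light, while phytochromes B to E are light-stable. Activated phytochromes enter the nucleus and bind the PIFs, transcription factors of the basic helix-loop-helix family that keep seedlings in the dark-grown form until light triggers their degradation.

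The loci lie on 5 chromosomes (coordinates are those of assembly TAIR10.1). *PHYA* (AT1G09570) is on the minus strand of chromosome 1 from 3095160 to 3100819 and *CRY2* (AT1G04400) on the minus strand of chromosome 1 from 1185512 to 1188696. *PHYB* (AT2G18790) is on the plus strand of chromosome 2 from 8139756 to 8144461. *PHOT1* (AT3G45780) is on the plus strand of chromosome 3 from 16816721 to 16824210. Chromosome 4 holds *PHYD* (AT4G16250, minus strand, 9195247 to 9199840), *PHYE* (AT4G18130, minus strand, 10042137 to 10046346) and *CRY1* (AT4G08920, plus strand, 5723651 to 5727268). Chromosome 5 holds *PHYC* (AT5G35840, plus strand, 14007812 to 14011848), *PHOT2* (AT5G58140, plus strand, 23523825 to 23533111) and *UVR8* (AT5G63860, minus strand, 25554416 to 25559499).

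PIFs bind the G-box (CACGTG). PIF3 also binds what the study calls the PBE-box (CACATG, which reads CATGTG on the other strand). The study cites reports of PBE-box binding by PIF1 and by PIF4. The report on PIF4 found no binding of PIF5 to the PBE-box. Both motifs were looked for in the reference sequence from 250 bases before to 50 bases after each annotated gene start, on both strands. No site counts as both, since the motifs differ in a central base. A G-box was present in 7.68% of the 27443 promoters searched and in 2 of the 10 photoreceptor promoters, those of *PHYB* and *PHYD*. A PBE-box was present in 12.9% of promoters and in 2 of the 10, those of *PHYD* and *PHOT1*. The sites are printed here because *PHYB* is one of the genes that fell in *pifq* and because a *PHYB* site was used as a binding probe in the study. Each is 26 bases long and is written 5′ to 3′ on the strand of its gene, with the motif in capitals.
*PHYB*, 146 bases before the start (chromosome 2, 8139600 to 8139625): gcccagcaacCACGTGtggccactag
*PHYB*, 111 bases before the start (chromosome 2, 8139635 to 8139660): accattagccCACGTGatcttgggcc
*PHYD*, 75 bases before the start (chromosome 4, 9199900 to 9199925): atccacaaccCACGTGatctcggtcc
*PHYD*, 131 bases before the start (chromosome 4, 9199956 to 9199981): cacagacgccCACATGcccacatata
*PHOT1*, 71 bases before the start (chromosome 3, 16816640 to 16816665): caaaagaagcCATGTGgaatcaaaaa
The distances run from the motif to the gene start. The study's wild-type *PHYB* probe has the same sequence as the *PHYB* site at 111 bases, which occurs 1 time in the genome. Its mutant probe, with the substitution T15G (position 15 counted from the 5′ end of the probe), has 0 matches in the genome.
*PHYB* mutant probe: accattagccCACGgGatcttgggcc
The *PHYD* G-box site at 75 bases and the *PHYB* site at 111 bases were identical at 19 of 26 bases. That count includes the G-box itself, by which the sites were aligned. The other pairs of *PHYB* and *PHYD* G-box sites within 1000 bases before the start were identical at 11 to 13 of 26 bases. In a wider window, from 1000 bases before to 50 after the start, a G-box was present in 15.9% of promoters and again in 2 of the 10, and a PBE-box in 38.9% and in 4 of the 10. *UVR8* then had 4 PBE-boxes and *PHYA* had 1. *PHYD* also had a G-box 764 bases before the start, and *PHOT1* a PBE-box 742 bases before it. Neither *UVR8* nor *PHYD* passed in any comparison given below. The *PHYA* site lies 753 bases before the start and is shown because *PHYA* had the clearest fall of the 10 genes.
*PHYA*, 753 bases before the start (chromosome 1, 3101557 to 3101582): accgagaaaaCACATGgtaatgaaca
*PHYC*, *PHYE*, *CRY1*, *CRY2* and *PHOT2* had neither run of letters in either window. The count tables carry no measure of binding at these sites, and a link between the motifs and the falls was not tested. By the study's account, its *PHYB* probe came from a PIF3-binding site found by chromatin immunoprecipitation sequencing. It reports that recombinant PIF3 bound this probe in a sequence-specific way in vitro.

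Libraries held between 23907577 and 41247734 counts. Reads were counted in the last 500 bases of a transcript, so levels of different genes can be set side by side without a further correction for length. They are given as CPM, counts relative to the library total after scaling by edgeR's TMM factor. The mutated genes were read first. *PIF1* averaged 0.0955 CPM in *pifq*, 0.145 in *pif145* and 9.31 in *pif3*, against 9.75 in WT. *PIF3* averaged 0.945 CPM in *pifq* and 1.14 in *pif3*, against 46.9 in *pif145* and 61.7 in WT. *PIF5* had 2 reads in *pifq* and 4 in *pif145*, against 178 in *pif3* and 129 in WT, summed over 3 libraries. *PIF4* averaged 2.77 CPM in *pifq*, 5.53 in *pif145* and 5.01 in *pif3*, against 3.29 in WT, and passed no comparison in the fit on genotype alone. With the replicate number fitted as a block it was higher in *pif145*/WT (adjusted p = 0.00462) and lower in *pifq*/*pif145* (0.00314) and *pifq*/*pif3* (0.00464). Reads from the 3′ end do not test an insertion elsewhere in that gene. Among the cell type markers, the etiolated-shoot gene *PORA* was present at 502 to 891 CPM in *pifq*, against 1219 to 1664 in WT.

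Dark-grown seedlings held *PHYA* and *PHOT1* transcripts far above those of the other receptors. The mean level of *PHYA* was 194 ± 7.94 CPM in *pifq*, 299 ± 18.7 in *pif145* and 386 ± 17.6 in *pif3*, against 368 ± 17.2 in WT (SD, n = 3 each). In WT this placed it above 97.8% of the genes tested. *PHOT1*, the main receptor of phototropism, averaged 136 ± 54.1 CPM in *pifq*, 183 ± 62.4 in *pif145* and 235 ± 89.7 in *pif3*, against 224 ± 84 in WT. The order in WT continued with *CRY1* at 46.2 CPM, *UVR8* at 42, *CRY2* at 35.5, *PHYB* at 14.8, *PHYC* at 7.53, *PHOT2* at 3.86, *PHYE* at 1.95 and *PHYD* at 0.718. In WT, *CRY1* and *UVR8* were the only neighbours in this order whose libraries overlapped. *PHYD* is the member closest to the limit of the counts, with 12 to 50 reads per library.

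**Figure D1:**
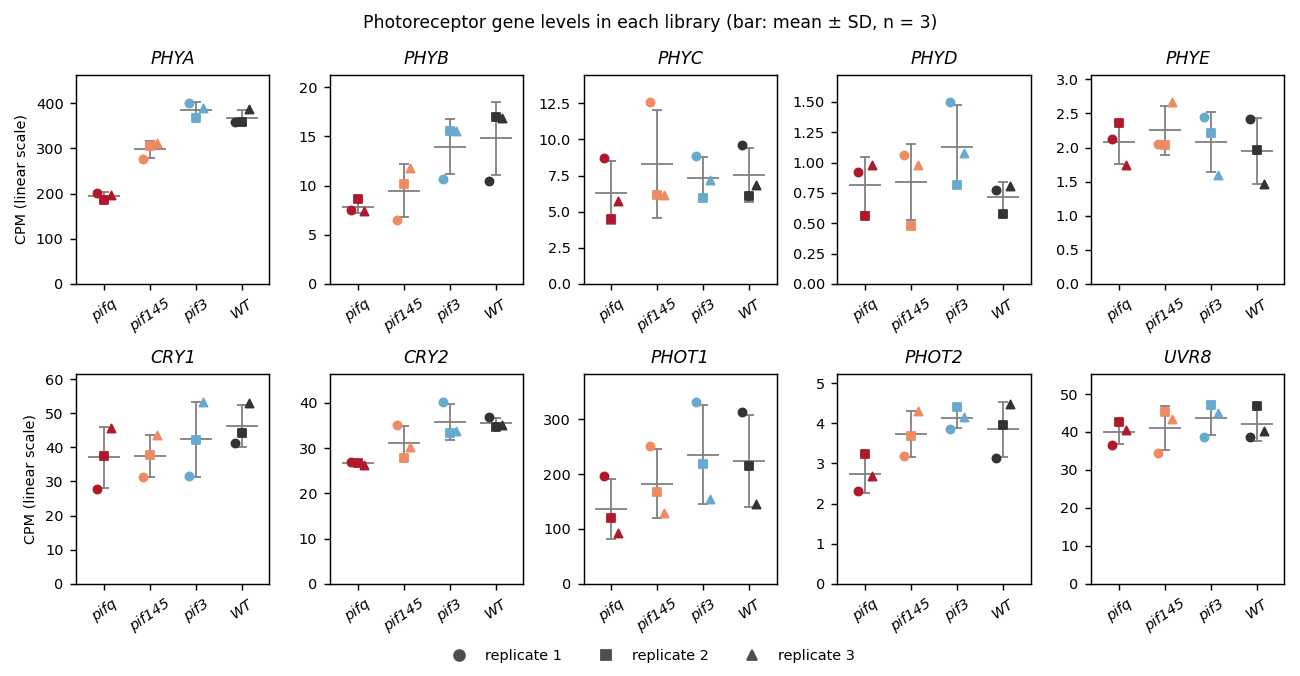
Level of each photoreceptor gene (CPM, linear axis from 0, different in each panel) in the 12 libraries, by genotype, with symbols for the replicate number. Horizontal bars are means and vertical bars SD (n = 3). The *PHYA* libraries of *pifq* lie between 186 and 202 CPM, all below those of WT, while the libraries of *UVR8* overlap in all genotypes.

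The order was nearly the same in the mutants. In *pifq*, *UVR8* stood next after *PHOT1* at 40 CPM with *CRY1* after it at 37 CPM, and their libraries overlapped. The 2 highest genes overlapped in *pifq* alone, where *PHYA* lay between 186 and 202 CPM and *PHOT1* between 92.8 and 197 CPM, although *PHYA* was the higher in each of the 3 replicate numbers. *PHYB* and *PHYC* overlapped in *pifq* (means of 7.87 and 6.31 CPM) and in *pif145* (9.5 and 8.31 CPM), and did not in *pif3* (14 and 7.36 CPM) or WT (14.8 and 7.53 CPM). The 10 genes together held 454 ± 49.7 CPM in *pifq*, 616 ± 36.1 in *pif145* and 771 ± 87.9 in *pif3*, against 745 ± 62.4 in WT. *PHYA* made up 91.9 ± 0.603% of the phytochrome reads in *pifq*, 93.4 ± 0.802% in *pif145* and 94 ± 0.436% in *pif3*, against 93.6 ± 0.306% in WT.

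The loss of all 4 PIFs was compared with WT first. *PHYA*, *PHYB* and *CRY2* fell in *pifq*, none of the 10 rose, and 7 did not pass. A gene was said to have fallen or risen when its adjusted p was at most 0.05 (quasi-likelihood test of edgeR, Benjamini-Hochberg adjustment over all genes tested). Of all genes tested, 18.4% passed in *pifq*/WT and 8.28% passed with a fall. The study's rule also asks for a change of at least 2-fold, which 0 of the 10 met, against 8.28% of all genes. It was met by 0 of the 10 in the other comparisons too, where the share of all genes was 1.71% in *pif145*/WT, 0.0381% in *pif3*/WT, 0.725% in *pifq*/*pif145* and 5.02% in *pifq*/*pif3*. The median log2 change was -0.36 over the 10 genes and -0.03 over all genes, and 8 of the 10 values were negative, against 52.1% of all genes. In whole seedlings, fewer cells that express a gene and less of its RNA per cell cannot be told apart. Fitting the replicate number as a block raised the count of falls to 6, adding *CRY1*, *PHOT1* and *PHOT2*, where 25.9% of all genes passed with a fall.

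*PHYA* had 202, 186 and 196 CPM in *pifq* and 358, 358 and 388 CPM in WT (replicates 1, 2 and 3). All *pifq* libraries lay far below all WT libraries. It changed by a log2 fold change of -0.92 (SE 0.12, adjusted p = 0.000225), or 1.89-fold lower in *pifq*, and it passed under all 17 alternatives, with values of -1.08 to -0.88. Of all genes, 16.7% had *pifq* libraries that were all below the WT libraries, as did 3 of the 10 photoreceptor genes.

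*PHYB*, the main receptor of red light in green plants, had 7.52, 8.66 and 7.43 CPM in *pifq* and 10.5, 17 and 16.9 CPM in WT. WT replicate 1 was the low one, yet it stayed above the *pifq* libraries. A log2 fold change of -0.91 was fitted (SE 0.25, adjusted p = 0.0262). It stayed between -1.11 and -0.77 under the alternatives, but leaving out replicate 2 or 3 of WT, or any *pifq* library, lost the call (adjusted p of 0.0509 to 0.0962), as did leaving out number 2 or 3 from every genotype (0.226 and 0.242). Those fits passed 964 to 2866 of all genes, against 3381 in the main fit. With the replicate block the adjusted p was 6.57e-06.

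*PHYC*, *PHYD* and *PHYE*, the lesser light-stable phytochromes, did not pass in *pifq*/WT. *PHYC* had 8.73, 4.47 and 5.73 CPM in *pifq* and 9.62, 6.1 and 6.87 CPM in WT, with a log2 fold change of -0.26 (95% interval -0.96 to 0.45). *PHYD* was at 0.17 (-0.64 to 0.98) and *PHYE* at 0.10 (-0.44 to 0.64), with *pifq* and WT libraries that overlapped. The intervals of *PHYD* and *PHYE* do not reach a fall as large as the fitted changes of *PHYA* and *PHYB*, and that of *PHYC* does.

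Of the cryptochromes, *CRY2*, the form lost quickly in blue light, had 27, 26.8 and 26.3 CPM in *pifq* and 36.8, 34.7 and 35.1 CPM in WT. The libraries within each genotype were close together and did not overlap between the genotypes. The log2 fold change was -0.41 (SE 0.13), and its adjusted p of 0.0499 was at the threshold. Leaving out any single *pifq* or WT library lost the call (0.101 to 0.135), as did leaving out number 2 or 3 from every genotype (0.22 and 0.27), although the change stayed between -0.58 and -0.39 under the alternatives. With those libraries left out 964 to 2866 of all genes passed, against 3381 in the main fit. *CRY2* also missed the threshold with DESeq2's size factors in edgeR (0.053), with no filter (0.065), with a stricter filter (0.0589) and in a fit of the compared libraries alone (0.116). Both the replicate block (0.000241) and DESeq2 (0.0167) made the call.

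*CRY1*, the more light-stable cryptochrome, had 27.9, 37.4 and 45.8 CPM in *pifq* and 41.2, 44.3 and 53 CPM in WT. Replicate 1 was the lowest of each genotype, and *pifq* was below WT at each number. The log2 fold change was -0.32 (SE 0.23, adjusted p = 0.363), and the replicate block gave -0.34 (SE 0.08, adjusted p = 0.00203). *CRY1* therefore passed only in the fit that compares libraries within their number.

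*PHOT1* differed widely by replicate number, in the same order in every genotype. It had 197, 119 and 92.8 CPM in *pifq*, 251, 168 and 129 in *pif145* and 332, 219 and 154 in *pif3*, against 313, 214 and 146 CPM in WT. In every genotype replicate 1 was the highest and replicate 3 the lowest, by 1.95- to 2.15-fold, so the groups overlapped although *pifq* was below WT at each number. The *pifq* minus WT differences of log2 CPM were -0.67, -0.85 and -0.65 at numbers 1, 2 and 3. The fit without the block gave a log2 fold change of -0.72 (SE 0.37) and an adjusted p of 0.206. Its SE was 0.07 in the blocked fit, at the same -0.72, with an adjusted p of 3.45e-08. Replicate 1 was sequenced on a different instrument from replicates 2 and 3. Without replicate 1 the value was -0.77 (adjusted p = 0.0718). Leaving out a single library moved the unblocked value between -1.07 and -0.40.

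**Figure D2:**
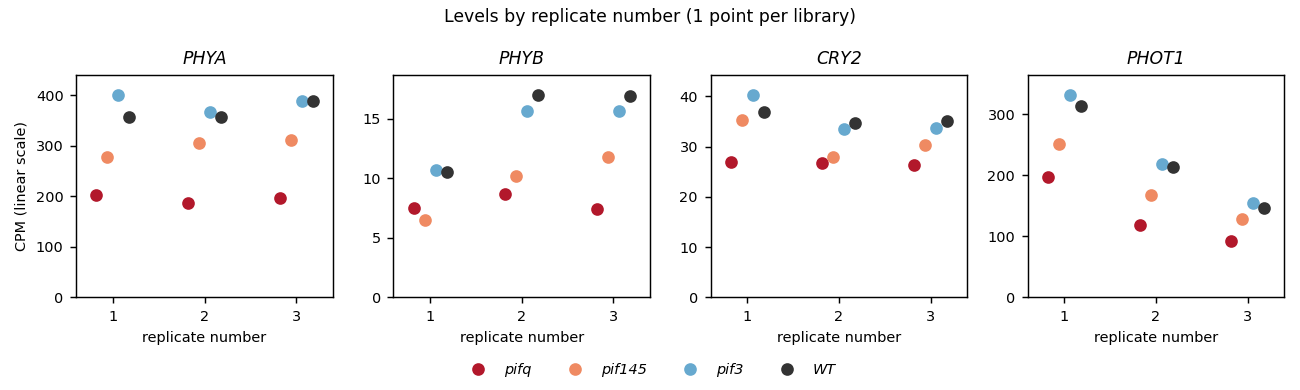
Level (CPM, linear axis from 0) of *PHYA*, *PHYB*, *CRY2* and *PHOT1* by replicate number, with 1 point per library and a colour per genotype. *PHOT1* is highest at number 1 and lowest at number 3 in all 4 genotypes, with *pifq* the lowest genotype at each number, whereas *PHYA* libraries of a genotype differ by no more than 1.13-fold.

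*PHOT2*, which with *PHOT1* moves chloroplasts and opens stomata, had 2.3, 3.23 and 2.68 CPM in *pifq* and 3.13, 3.95 and 4.49 CPM in WT. The lowest WT library lay just under the highest *pifq* library. The log2 fold change was -0.49 (SE 0.2, adjusted p = 0.112), and the replicate block gave -0.48 (SE 0.15, adjusted p = 0.0125). An opposite-strand gene, AT5G58150, overlaps *PHOT2* by 2760 bases, and the counting was limited to the coding strand.

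*UVR8* had 36.6, 42.7 and 40.5 CPM in *pifq* and 38.8, 46.8 and 40.3 CPM in WT. Its log2 fold change of -0.07 had the 95% interval -0.39 to 0.25, and it passed under 0 of 17 alternatives. Of the genes above 20 CPM, it had the smallest fitted change in *pifq*/WT among the 10.

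**Figure D3:**
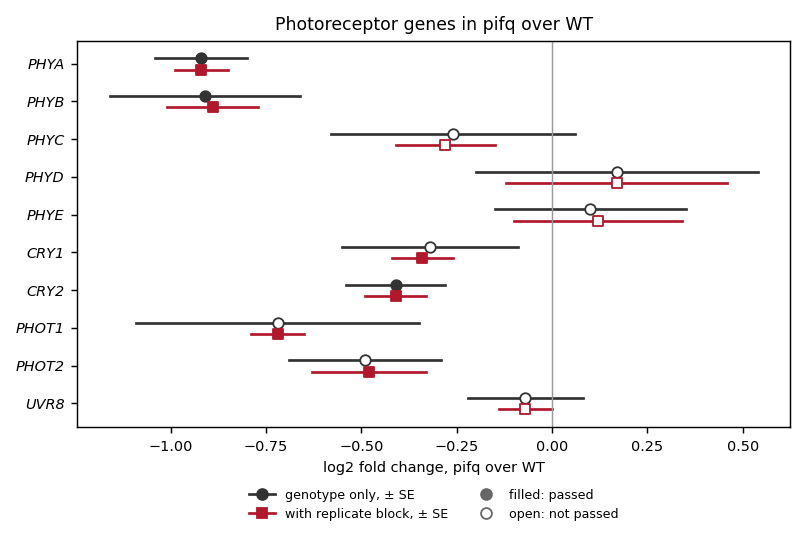
Log2 fold change of *pifq* over WT for each photoreceptor gene, from the fit on genotype alone (circles) and the fit with the replicate number as a block (squares), each ± SE. Filled symbols passed at an adjusted p of 0.05. The fitted values hardly differ between the fits, and the bar of *PHOT1* shrinks from an SE of 0.37 to 0.07.

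The loss of PIF1, PIF4 and PIF5 alone was examined in *pif145*/WT. None of the 10 passed (0 of 10, against 3.31% of all genes), and DESeq2 called 1, *PHYA*. An unadjusted p under 0.05 in edgeR was found for 2 of the 10, against 16.8% of all genes. *PHYA* had 277, 306 and 312 CPM in *pif145* and 358, 358 and 388 CPM in WT, with no overlap, which was the case for 10.2% of all genes with lower values. Its log2 fold change was -0.30 (SE 0.11, adjusted p = 0.194; 0.0495 by DESeq2). *PHYB* had 6.48, 10.2 and 11.8 CPM in *pif145*, against 10.5, 17 and 16.9 CPM in WT. The groups overlapped, but *pif145* was lower at each number, and the change was -0.65 (SE 0.25, adjusted p = 0.208). Once the block was fitted, 4 genes fell, where 15.5% of all genes did: *PHYA* (adjusted p = 0.00219), *PHYB* (0.000357), *CRY1* (log2 -0.31, 0.00727) and *PHOT1* (log2 -0.28, 0.00328). The other 6 genes lay between -0.19 and 0.25 in the unblocked fit.

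The loss of PIF3 alone left the photoreceptor genes without a call. In *pif3*/WT 0 of the 10 passed in edgeR, with or without the replicate block, or in DESeq2. Of all genes, 0.0381% passed in edgeR (7.88% with the block). An unadjusted p under 0.05 in edgeR was found for 0 of the 10, against 4.63% of all genes. *PHYA* was at a log2 fold change of 0.07 (SE 0.11). All members but *PHYD* lay between -0.13 and 0.10. *PHYD* was the outermost at 0.65 (SE 0.36, adjusted p = 1), with 1.5, 0.815 and 1.08 CPM in *pif3* and 0.775, 0.576 and 0.803 CPM in WT. The *pif3* libraries did not overlap those of WT, as for 5.17% of all genes with higher values, and they rest on 32 to 50 reads in *pif3* and 22 to 27 in WT.

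PIF3 was removed from a background already lacking the other PIFs in *pifq*/*pif145*. Only *PHYA* passed (1 of 10, against 0.975% of all genes, and 0.621% with a fall). It had 202, 186 and 196 CPM in *pifq* and 277, 306 and 312 CPM in *pif145*, with no overlap, as for 5.96% of all genes and for 2 of the 10 (*PHYA* and *CRY2*). The log2 fold change was -0.62 (SE 0.12, adjusted p = 0.0239). The call was lost without any *pifq* library, without replicate 2 or 3 of *pif145*, without number 2 or 3 throughout and with the compared libraries alone (adjusted p of 0.0763 to 0.644), while the value stayed between -0.70 and -0.56. Under those settings 11 to 112 of all genes passed, against 179 in the main fit. With the block 3 genes fell, where 7.03% of all genes did: *PHYA* (3.24e-06), *PHOT1* (log2 -0.44, 0.000112) and *PHYC* (log2 -0.40, 0.0497). All 10 values were negative in the unblocked fit, between -0.62 and -0.02, against 50.6% of all genes. *PHYB* did not pass, at a log2 fold change of -0.26 (SE 0.25, adjusted p = 0.947, and 0.248 with the block), and its libraries overlapped. Its difference of log2 CPM was 0.21 at number 1 and negative at numbers 2 and 3.

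The comparison *pifq*/*pif3* shares its *pifq* libraries with *pifq*/WT. *PHYA* passed (1 of 10, against 10.8% of all genes, and 5.2% with a fall), at 202, 186 and 196 CPM in *pifq* and 401, 367 and 389 CPM in *pif3*. The log2 fold change was -0.99 (SE 0.12, adjusted p = 0.000271), or 1.98-fold lower, and the call held under all 17 alternatives. The *pifq* libraries lay below all *pif3* libraries for 4 of the 10 genes (*PHYA*, *PHYB*, *CRY2* and *PHOT2*), against 13.4% of all genes. *PHYB* was at -0.83 (SE 0.25, adjusted p = 0.0572), *CRY2* at -0.42 (SE 0.13, 0.0632) and *PHOT2* at -0.59 (SE 0.2, 0.0814). With the block 5 genes fell, where 20.9% of all genes did: *PHYA*, *PHYB* (2.8e-05), *CRY2* (0.000273), *PHOT1* (log2 -0.79, 2.04e-08) and *PHOT2* (0.00345). Without pif3 replicate 1, or without number 1 throughout, *PHYB* passed as well (0.0454 and 0.00809), which made 2 genes. Under those settings 1293 and 1938 of all genes passed, against 1982 in the main fit.

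**Figure D4:**
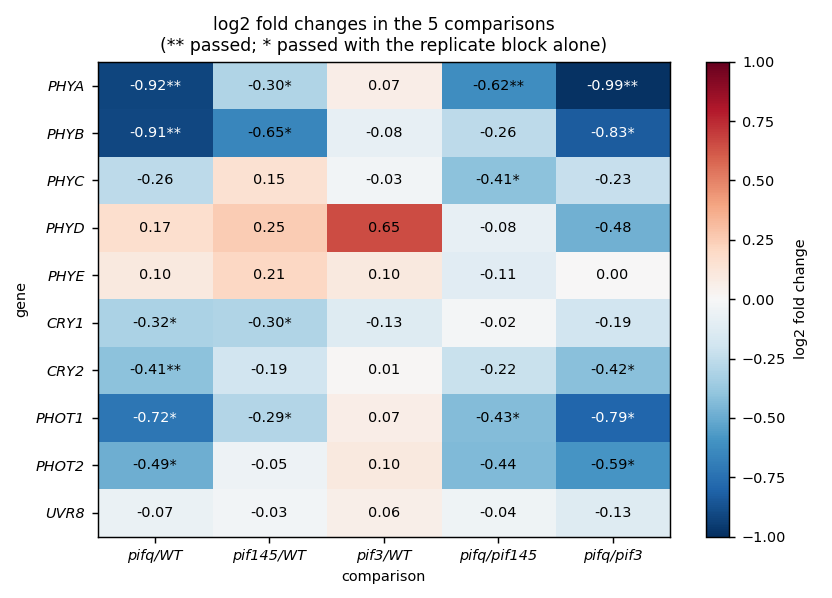
Log2 fold change of each photoreceptor gene (down the page) in the 5 comparisons (across), with blue for lower and red for higher in the first-named genotype. Double stars mark genes that passed in the fit on genotype alone and single stars those that passed with the replicate block alone. The *pif3*/WT column has no star, and *PHYA* is starred in the other 4.

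A further contrast asked whether removing PIF3 had a different effect in *pif145* than in WT. For *PHYA* the change in *pifq*/*pif145* was below that in *pif3*/WT by log2 -0.69 (SE 0.16, adjusted p = 0.38 in edgeR). None of the 10 passed (0 of 10, against 0.109% of all genes). An unadjusted p under 0.05 in edgeR was found for 1 of the 10, *PHYA*, against 3.09% of all genes. DESeq2 gave *PHYA* an adjusted p of 0.00122. With the replicate block *PHYA* passed (0.00025), as did *PHOT1* (log2 -0.51, 0.00344), and 2.57% of all genes did.

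The libraries also differed in tissue markers. Seed and embryo genes (7 of 7 detected) summed to 88 to 151 CPM in *pifq*, 70.8 to 139 in *pif145* and 596 to 1021 in *pif3*, against 510 to 1341 in WT. The sum is carried by the storage protein genes *CRA1* (61.2 CPM in *pifq* and 637 in WT) and *CRU3* (25.6 CPM in *pifq* and 150 in WT). These and *SESA2* fell in both *pifq*/WT and *pif145*/WT, and the other 4 passed neither. Among those, *OLEO1* averaged 22.8 CPM in *pifq* and 28 in WT, and *SESA3* 2.11 CPM in *pifq* and 1.86 in WT. With the block 5 of the 7 fell in *pifq*/WT and 6 in *pif145*/WT. The shoot meristem gene *STM* was at 1.8 to 2.34 CPM in *pifq*, 2.92 to 4.47 in *pif145* and 2.85 to 3.41 in *pif3*, against 3.27 to 3.68 in WT. Root genes (4 of 4 detected) summed to 16.5 to 28.2 CPM in *pifq*, 17.3 to 26.5 in *pif145* and 16.3 to 25.4 in *pif3*, against 17 to 21.9 in WT. The part of these differences in the photoreceptor results was not tested.

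The partners of each receptor were counted in lists of genes with a known role beside it. The counts for *pifq*/WT stand beside the 10.1% of all genes that rose and the 8.28% that fell (24.6% and 25.9% with the block), and no list was tested as a group. Of 8 genes of phytochrome nuclear import and signalling, 7 were tested and 2 fell in *pifq*/WT. *FHY1*, which carries phytochrome A into the nucleus, averaged 27.4 ± 4.75 CPM in *pifq* and 59.9 ± 8.38 CPM in WT (log2 -1.13, SE 0.18, adjusted p = 0.00117), and 52.8 ± 9.54 in *pif145* and 59.6 ± 8.02 in *pif3*. It also fell in *pifq*/*pif145* (log2 -0.95, adjusted p = 0.0282) and *pifq*/*pif3* (log2 -1.12, 0.00254). Its homologue *FHL* fell too (log2 -2.47, SE 0.68, adjusted p = 0.0248), on 10 reads in *pifq* and 66 in WT over 3 libraries, and in *pifq*/*pif3* (log2 -2.33, 0.0466). With the block 4 of the list fell in *pifq*/WT. The median over the list was -0.30. Of 5 genes of phytochrome chromophore synthesis, 3 were tested and 0 passed in any comparison (median 0.33 in *pifq*/WT), while 2 rose with the block.

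Of 8 cryptochrome partners 6 were tested, 2 fell in *pifq*/WT (3 with the block) and the median was -0.32. *CIB1*, a transcription factor bound by CRY2 in blue light, averaged 7.52 ± 1.73 CPM in *pifq* and 28.7 ± 9.18 CPM in WT (log2 -1.93, SE 0.28, adjusted p = 0.000499), and it fell in *pifq*/*pif3* (log2 -1.59, 0.00327). The locus AT2G25760 was at log2 -0.49 (adjusted p = 0.0328).

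Of 8 phototropin partners, 4 rose and 1 fell in *pifq*/WT (5 and 2 with the block), with a median of 0.58. *RPT2*, a member of the NPH3 family that acts in phototropism, averaged 72.3 ± 25.6 CPM in *pifq*, 35.5 ± 17.5 in *pif145* and 18 ± 4.15 in *pif3*, against 11.9 ± 2.34 in WT. It rose in *pifq*/WT (log2 2.61, SE 0.35, adjusted p = 0.000352), in *pif145*/WT (log2 1.58, 0.0262) and in *pifq*/*pif3* (log2 2.00, 0.00321). The kinase gene *BLUS1*, a phototropin substrate in guard cells, rose in *pifq*/WT (log2 1.57, 0.0456), on 98 reads in *pifq* and 39 in WT over 3 libraries. The loci AT5G67385 (log2 0.72, 0.00767) and AT1G18810 (log2 1.09, 0.0318) also rose. *NPH3*, the scaffold protein that PHOT1 needs for phototropism, fell (log2 -0.65, SE 0.2, adjusted p = 0.0397), with 20.9 ± 3.42 CPM in *pifq* and 32.7 ± 5.94 CPM in WT.

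Of 10 UVR8 partners and COP1/SPA genes, 2 fell and 0 rose in *pifq*/WT (median -0.44). With the block 5 fell and 1, the UVR8 repressor gene *RUP2*, rose (adjusted p = 0.00735). *HY5*, a transcription factor that promotes light-grown development, averaged 2.55 ± 0.294 CPM in *pifq*, 6.37 ± 2.41 in *pif145* and 5.61 ± 1.38 in *pif3*, against 7.34 ± 1.21 in WT (log2 -1.53, SE 0.28, adjusted p = 0.00251 in *pifq*/WT). It fell in *pifq*/*pif145* (log2 -1.32, 0.048) and *pifq*/*pif3* (log2 -1.14, 0.0214) as well. Its homologue *HYH* fell in *pifq*/*pif145* (log2 -1.58, 0.0322) but did not pass in *pifq*/WT (log2 -0.71, 0.145, and 0.0171 with the block). *HYH* averaged 1.12 ± 0.0119 CPM in *pifq*, 3.33 ± 1.43 in *pif145* and 1.41 ± 0.39 in *pif3*, against 1.83 ± 0.355 in WT. With the block it was higher in *pif145*/WT (adjusted p = 0.00364). *RUP1*, a repressor of UVR8 signalling, fell in *pifq*/WT (log2 -0.67, 0.0117) and *pifq*/*pif3* (log2 -0.93, 0.0033). Of 5 further LOV-domain and cryptochrome-type genes, *PLP* alone passed in *pifq*/WT (median of the list -0.13), while 2 fell and 1 rose with the block. *PLP*, which encodes a PAS/LOV protein, averaged 12 ± 1.6 CPM in *pifq*, 15.4 ± 1.13 in *pif145* and 22.5 ± 4.57 in *pif3*, against 25.9 ± 1.1 in WT (log2 -1.12, SE 0.17, adjusted p = 0.00075), and it fell in *pif145*/WT (log2 -0.75, 0.0316) and *pifq*/*pif3* (log2 -0.91, 0.00521).

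For the genes that passed, those with the most similar pattern over the 12 libraries were looked up by the root mean square difference of centred log2 CPM. For *PHYA* they were AT5G12940 (0.07), AT5G04760 (0.11) and *AXR3*, an auxin-response repressor (0.12), where the pattern of *PHYA* itself spans a root mean square of 0.39. For *PHYB* they were *MCCB*, *STY46* and *LRB1*, each at 0.14 against 0.47. For *CRY2*, whose own pattern is narrow at 0.2, they were *KCS5* and *PFA-DSP5*, each at 0.06, and the auxin receptor gene *AFB2* at 0.08. The libraries behind these values are the same for all genes, and no test was made of them.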

How the data were processed

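Polyadenylated 3′ ends from 12 libraries were sequenced by a directional protocol. The deposited tables hold raw counts: per the study's methods, the authors aligned 36-base reads with Bowtie, allowing 0 mismatches, and kept unique sense-strand reads within 500 bases of the transcript's 3′ end. The genome is TAIR9 in the methods and TAIR10 in the submitters' processing notes, which also list CASAVA 1.7.0 and Bowtie 0.12.7. Every 36-base word of the counted ends of the 10 genes (100%) was unique to its gene in TAIR10.1. Totals were 23907577 to 41247734. Depth covers counting error only. Libraries of a genotype differed beyond sampling noise (lowest chi-square over its degrees of freedom 37.5).

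After TMM scaling, edgeR 4.0.16 tested the counts (quasi-likelihood; limma 3.58.1, R 4.3.3) in a single fit over the 12 libraries, after edgeR's expression filter, with genotype as the only term. The 5 contrasts and a difference of contrasts were adjusted by Benjamini-Hochberg over all genes. Fold changes are the first-named genotype over the other. Alternatives were DESeq2 1.42.0, its size factors, no scaling, other filters, platform as a term, the compared libraries alone, a replicate block and leaving out libraries.

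Replicate numbers pair the libraries. Deviations from genotype means correlated at 0.51 to 0.68 in 18 same-number pairs and at -0.49 to -0.0036 between numbers. The deviations within a genotype cancel out, so the negative values between numbers follow on average from the positive same-number ones. Each of the 12 libraries most resembled those of its own number. The methods call the numbers biological replicates and place replicate 1 on a GAIIx and the others on a HiSeq2000. Whether they came from separate sowings is not given in the sources used here. The members and gene lists were chosen with earlier results of these data known. Named genes were the 10 members, the 4 PIF genes, list genes passing in *pifq*/WT, up to 4 per list elsewhere (by smallest p), and the 3 genes most like each member that passed, of at least 2 CPM. Motifs and coordinates came from RefSeq TAIR10.1, and the probe sequences from the study's supplement.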

Additional observations from a re-analysis of the deposited data

How the results depend on the processing

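Numbers in brackets count all genes that passed under the same setting. Beside the 3 photoreceptor genes that passed in *pifq*/WT (3381), the replicate block gave 6 (9273), platform as a term 5 (6459) and the 2-fold rule 0 (1519). Leaving out libraries gave 1 to 3 (964 to 3482). In *pif145*/WT, where 0 passed (608), the block gave 4 (5822), platform as a term 2 (2592) and DESeq2 1 (1273). In *pifq*/*pif145*, where 1 passed (179), the block gave 3 (2706). The 2-fold rule (133) and the compared libraries alone (50) each gave 0. Leaving out libraries gave 0 to 1 (11 to 207). In *pifq*/*pif3*, where 1 passed (1982), the block gave 5 (7748) and platform as a term 5 (4785). No scaling gave 3 (1651) and DESeq2 3 (2708). The stricter filter (at least 5 CPM in 3 libraries) gave 2 (1731), the compared libraries alone 2 (1095) and the 2-fold rule 0 (922). Leaving out libraries gave 1 to 2 (296 to 1938). For the difference of contrasts, where 0 passed (20), the block gave 2 (472), platform as a term 1 (74) and DESeq2 1 (54). The count for *pif3*/WT was 0 under all alternatives run (0 to 1447). Apart from the calls given in the report, the replicate block changed no call of a photoreceptor gene.

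Without scaling factors the median of all genes moved by -0.17 in *pifq*/WT, -0.1 in *pif145*/WT and -0.11 in *pif3*/WT, and the genes passing in *pifq*/WT split into 1121 higher and 2291 lower, against 1862 and 1519 with TMM. The splits were 161 and 318 without scaling, against 362 and 246, in *pif145*/WT, 35 and 140, against 65 and 114, in *pifq*/*pif145*, and 647 and 1004, against 1027 and 955, in *pifq*/*pif3*. The sign then turned for *PHYE* in *pifq*/WT (-0.08) and *PHYA* in *pif3*/WT (-0.03). It also turned for *PHYE* in *pifq*/WT without WT replicate 3 (-0.07), *UVR8* in *pifq*/WT without WT replicate 2 (0.01), *PHOT1* in *pif145*/WT without WT replicate 1 (0.03) and *PHYC* in *pifq*/*pif145* without pif145 replicate 1 (0.03). Over the libraries left out, these values ranged from -0.07 to 0.28 around 0.10 for *PHYE*, from -0.13 to 0.01 around -0.07 for *UVR8*, from -0.59 to 0.03 around -0.29 for *PHOT1* and from -0.71 to 0.03 around -0.41 for *PHYC*. The causes were not tested. *PHYD* and *PHYE* rest on under 100 reads per library, which limits what could be detected.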
